A study of Mus musculus with 27 samples.

Results

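Mouse chromosome 6 was examined as a DNA copy number gain in medulloblastoma grafts from Ptch+/-p53-/- mice. The chromosome was taken as every probe of the DNA arrays that was not a control and whose position lay on chromosome 6 of build mm8. That rule gave 13963 probes with values on all arrays, of 233011 probes in all, between positions 3024849 and 149520662, a span of 146.5 Mb. The chromosome was chosen by its measured log2 ratios, the gain seen on these same 6 arrays, so the level of chromosome 6, its evenness and its local departures are described here without a test. The comparison of drug-resistant with vehicle tumours was not part of the rule and was tested. Since the rule asked for a gain in all 6 tumours, it favoured a chromosome with like levels in both groups.

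The series grafted medulloblastoma of Ptch+/-p53-/- mice into nude mice and treated the hosts with NVP-LDE225, an antagonist of the Hedgehog pathway protein Smo, or with vehicle. DNA was measured in 6 tumours, each on its own array against liver DNA labelled normal and wild type. The vehicle group held 3 tumours labelled sensitive, given vehicle for 26 days. The resistant group held 3 tumours given NVP-LDE225 for 26 days in 2 daily doses, with daily totals of 40, 80 or 160 mg/kg for 1 tumour apiece. Labels of the 160 mg/kg/day tumour disagree, since its title and source carry the word vehicle while its status, treatment and dose read resistant, NVP-LDE225 and 160. It was kept in the resistant group on the latter labels. All 6 tumours share the Ptch+/-p53-/- genotype, and whether they descend from 1 original tumour is not given in the sources used here. Nothing in the labels says that the tumours were separate passages or litters, so p-values measure only the spread between these 6 samples. DNA came from whole tumours, in which any host cells add normal DNA. A gain carried by a part of the cells and a gain diluted by host cells cannot be told apart in such a profile.

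Comparative genomic hybridization labels tumour DNA and reference DNA with different dyes and reads, at each probe, the log2 ratio of the 2 signals. A whole extra chromosome raises all probes of that chromosome alike, whereas an amplification or deletion raises or lowers a run of neighbours. Chromosome 6 carries Smo, which Ptch1 holds inactive until Hedgehog ligand binds, and Ccnd2, the cyclin D2 gene, which drives entry into the cell cycle and is a known target of Hedgehog signalling in granule neuron precursors, the cells that give rise to this tumour type. Losing p53 lets cells with abnormal chromosome numbers survive.

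Ratios were centred on the median of each array's autosomal probes, so 0 stands for the usual autosomal copy number. At least 99.98% of chromosome 6 features were well above background in both channels on every array. The scatter between neighbouring chromosome 6 probes (robust SD, log2) was 0.12, 0.19 and 0.17 in vehicle tumours against 0.31, 0.27 and 0.45 in resistant tumours at 40, 80 and 160 mg/kg/day, so small stretches were read less precisely in the resistant tumours. All 6 arrays were scanned on the same day, each on its own slide.

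Chromosome 6 stood above every other autosome in all 6 tumours, and its level was nearly the same in each. The median log2 ratio was 0.48, 0.48 and 0.50 in vehicle tumours 1, 2 and 3. In the resistant tumours it was 0.49 at 40, 0.45 at 80 and 0.48 at 160 mg/kg/day. As linear ratios these are 1.37 to 1.41 times liver. A chromosome at 3 copies in every cell, against 2 in liver, would give a log2 ratio of 0.585, and all 6 medians lay below that. The highest other autosome was chromosome 11 in the vehicle tumours, with medians of 0.03 to 0.04. In the resistant tumours it was chromosome 8 at 40 mg/kg/day (0.23), chromosome 16 at 80 mg/kg/day (0.22) and chromosome 2 at 160 mg/kg/day (0.17). The gap between chromosome 6 and the next autosome was thus 0.45 to 0.46 in vehicle tumours against 0.23 to 0.31 in resistant tumours.

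**Figure D1:**
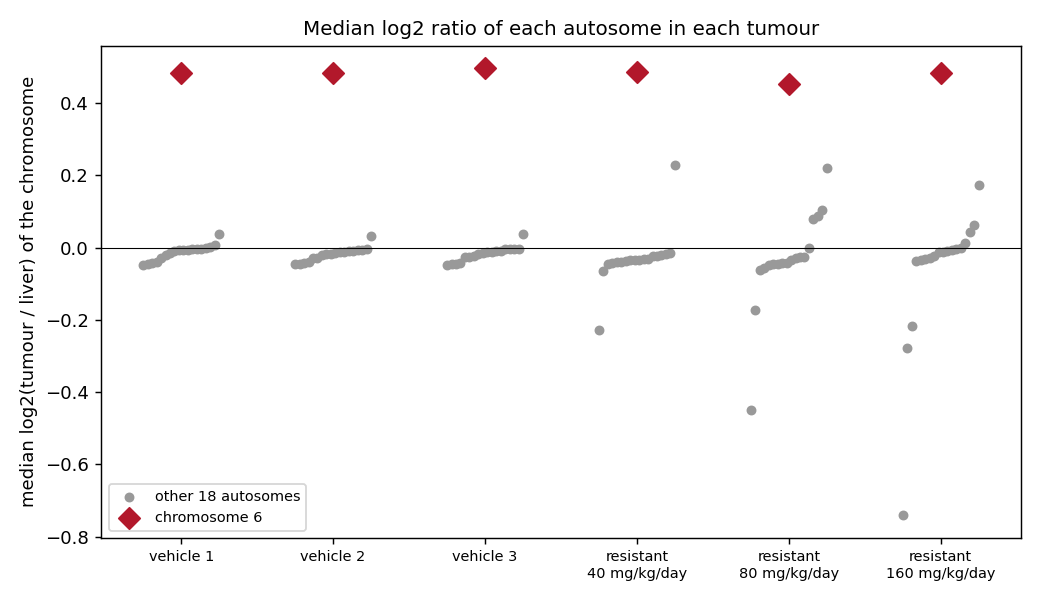
Median log2 ratio (tumour over liver, vertical axis) of each of the 19 autosomes in each of the 6 tumours (horizontal axis). Red diamonds are chromosome 6 and grey points the other 18 autosomes, ordered by value within a tumour; the diamonds lie between 0.45 and 0.50 and no grey point exceeds 0.23.

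The resistant tumours did not differ detectably from the vehicle tumours in the level of the gain. The median was 0.49 ± 0.0074 (SD, n = 3) in vehicle against 0.47 ± 0.018 (SD, n = 3) in resistant tumours, and the values of the groups overlap. The difference, resistant minus vehicle, was -0.013 (two-sided exact permutation test, p = 0.5, and 0.6 after Benjamini-Hochberg adjustment over 5 tests). With 3 tumours against 3 the smallest p this test can give is 0.1. The sign of this small difference turned to 0.026 when arrays were centred on the autosomal mode and to 0.004 with means in place of medians. With normexp background correction the difference was -0.13 (exact permutation p = 0.4), and the tumour at 80 mg/kg/day read 0.15 while the other 5 lay between 0.44 and 0.55.

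The share of single probes above 0 measures how completely the chromosome was raised. It was 99.6%, 99.0% and 99.2% of chromosome 6 probes in vehicle tumours, and 95.3%, 96.1% and 87.3% in resistant tumours at 40, 80 and 160 mg/kg/day. On the other autosomes 46.6% to 47.5% of probes lay above 0. The lower shares in resistant tumours went with a wider scatter, since the SD over chromosome 6 probes was 0.17 to 0.22 in vehicle against 0.29 to 0.46 in resistant tumours.

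In 5 of the 6 tumours ratios also fell with the brightness of a probe. Brightness was taken as the mean log2 signal of both channels over the 6 arrays, with each chromosome's own gain or loss removed, and autosomal probes were split into quartiles. In the tumour at 160 mg/kg/day the chromosome 6 median fell from 0.97 in the dimmest quartile to 0.06 in the brightest. The other autosomes fell alongside, from 0.45 to -0.45. In vehicle tumour 1 they did not fall, with chromosome 6 between 0.46 and 0.52. The difference between chromosome 6 and the other autosomes at the same brightness was level throughout: across the 4 quartiles it was 0.48 to 0.51 in vehicle tumour 1, 0.50 to 0.51 in vehicle tumour 2, 0.51 to 0.52 in vehicle tumour 3, 0.51 to 0.52 at 40, 0.49 to 0.50 at 80 and 0.51 to 0.53 at 160 mg/kg/day. Setting each probe against the other autosomes at its own brightness gave chromosome 6 medians of 0.50, 0.50 and 0.51 in vehicle against 0.51, 0.49 and 0.51 in resistant tumours. The share of probes above 0 then became 96.3% at 160 mg/kg/day and 98.7% to 99.6% in the other 5 tumours. This brightness-matched scale was chosen after the data were seen and is given below beside results it touches.

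**Figure D2:**
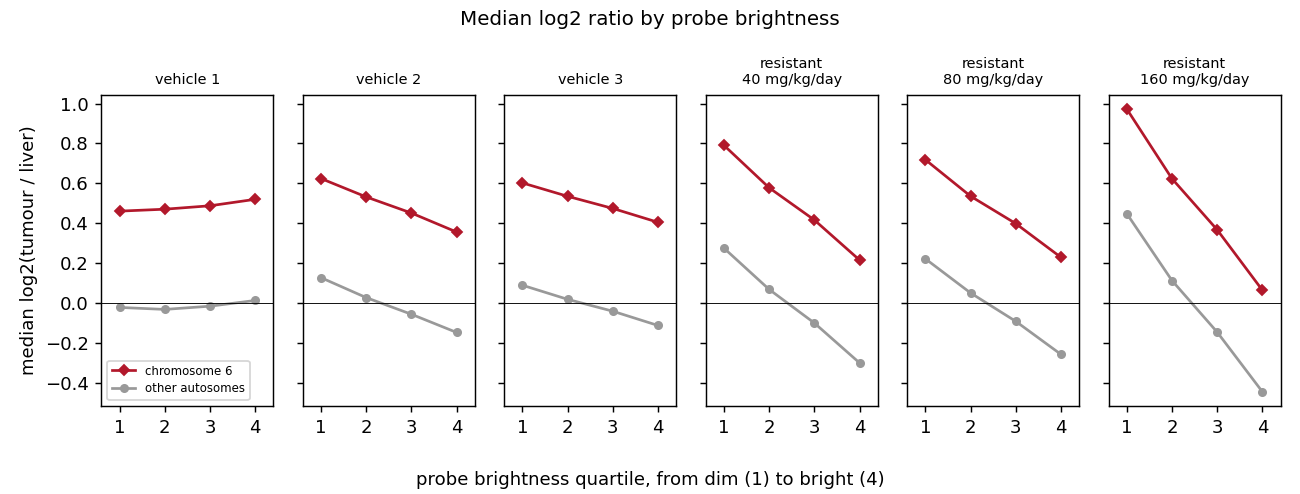
Median log2 ratio (vertical axis) of chromosome 6 probes (red diamonds) and of probes on the other autosomes (grey circles) in 4 quartiles of probe brightness, from dim to bright (horizontal axis), with 1 panel per tumour. Both lines fall steeply in the resistant tumours and keep a near constant distance of 0.48 to 0.53 in all 6 panels.

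The gain ran from the first to the last probe of the chromosome. In 1 Mb windows with at least 5 probes, all 147 windows of chromosome 6 lay above 0 in every tumour, between 0.27 and 0.67. In 142 of the 147 windows the mean was 0.3 or more in all 6 tumours, against 13 of 2249 windows of the other autosomes (6.47% of all autosomal windows, a share that includes chromosome 6). No window lay 0.3 or more from its tumour's chromosome 6 median. Departures of 0.2 or more were found in 2 windows of vehicle tumour 1 and 1 of vehicle tumour 3, and in none of the other tumours. The first 20 probes had means of 0.27 to 0.37 and the last 20 probes means of 0.46 to 0.53, so both ends were gained.

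The windows were not perfectly level. Their SD was 0.088, 0.079 and 0.090 in vehicle tumours against 0.058, 0.070 and 0.080 in resistant tumours, 1.62 to 6.64 times what the scatter of the probes alone would give. The same spread was found on chromosomes without the gain, where the median SD over the other autosomes was 0.062 to 0.097. The windows rose and fell at the same places in the vehicle tumours (Pearson's r of 0.96 to 0.98 over 147 windows, which share probes and a liver reference). The resistant tumours shared this pattern to unlike degrees. The tumour at 40 mg/kg/day was least like the vehicle tumours, with r of 0.37 to 0.53. With the vehicle tumours r was 0.85 to 0.93 at 80 and 0.65 to 0.79 at 160 mg/kg/day. Between resistant tumours it was 0.71 to 0.92. The share of probes named for a gene or transcript also varied along the chromosome. The 37 windows with the highest such shares (at least 81.2%) exceeded the 37 with the lowest (at most 50.6%) by 0.068 to 0.075 in the vehicle tumours and by 0.037 to 0.055 in resistant tumours. Pearson's r of window mean with this share was 0.360 to 0.373 in vehicle and 0.285 to 0.356 in resistant tumours. The other autosomes showed the trend too, with r of 0.265 to 0.282 and 0.096 to 0.153 after centring each chromosome on its median.

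**Figure D3:**
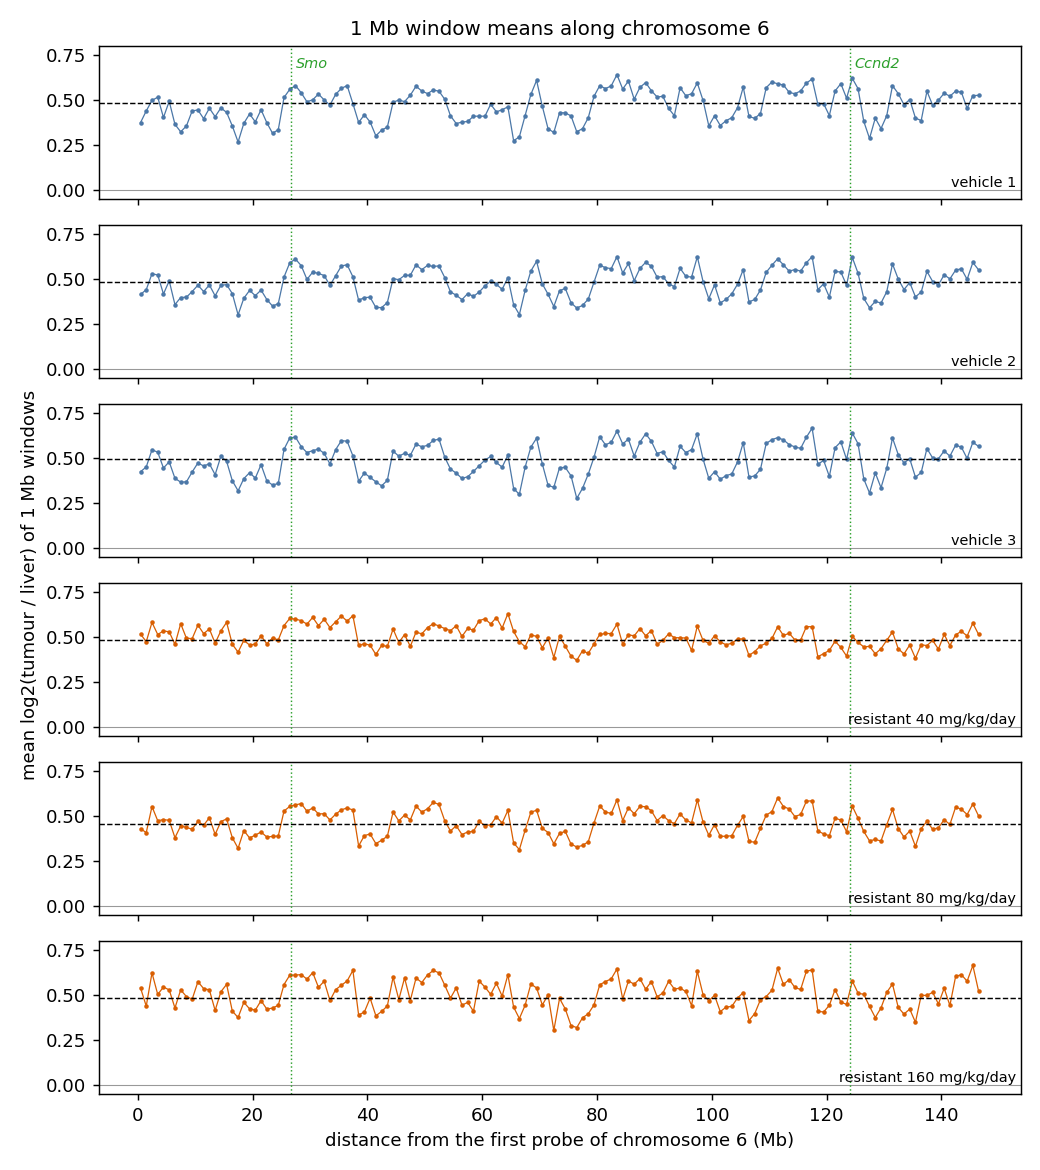
Mean log2 ratio of 1 Mb windows (vertical axis) against distance from the first chromosome 6 probe in Mb (horizontal axis), 1 panel per tumour, with vehicle tumours in blue and resistant tumours in orange. Dashed lines mark each tumour's chromosome 6 median, dotted lines Smo and Ccnd2; every window lies above 0, and the 3 vehicle tumours rise and fall together.

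The 3 lowest windows by the mean over tumours held few genes. They were chr6:79000001-80000000, with Lrrtm4, a synaptic adhesion gene, at 0.28 to 0.37, and chr6:20000001-21000000 (0.27 to 0.42) and chr6:75000001-76000000 (0.30 to 0.39), with no gene matched. The 3 highest held more. The window chr6:86000001-87000000, with Aak1, Tgfa, Anxa4, Gmcl1, Add2 and Mxd1, lay at 0.57 to 0.65. The window chr6:120000001-121000000, with Ninj2, B4galnt3, Bcl2l13, Ccdc77, the apoptosis gene Bid and Atp6v1e1, lay at 0.56 to 0.67. The window chr6:100000001-101000000, with Gxylt2, Shq1, Rybp and Ppp4r2, lay at 0.56 to 0.64.

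The highs and lows lay in broad stretches of several megabases. Segmentation of vehicle tumour 1 gave 31 stretches of at least 5 probes, 19 below and 12 above the chromosome median, with means of 0.31 to 0.59. The low and high stretches were thus cut and sorted on values of vehicle tumour 1, which also stands in the vehicle ranges below. That choice favours lower vehicle values in low stretches and higher ones in high stretches, so the group ranges are descriptions and were not tested. The low stretches included the immunoglobulin kappa variable genes (chr6:67641015-70640803, 212 probes), at 0.31, 0.35 and 0.34 in vehicle against 0.49, 0.35 and 0.41 in resistant tumours. These genes encode the variable part of antibody light chains. They included the natural killer cell receptor genes Klrk1, Klrc1 to Klrc3 and the Klra family with neighbouring bitter taste receptor genes (chr6:129274871-133848970, 391 probes), at 0.35 to 0.36 in vehicle against 0.37 to 0.43 in resistant tumours. A stretch of trypsin, taste and odorant receptor genes (chr6:40634175-47133639, 712 probes) lay at 0.37 to 0.38 and 0.38 to 0.46. It also held most of Cntnap2, a long neuronal adhesion gene. The stretch with the contactin genes Cntn3, Cntn4 and Cntn6, which encode adhesion proteins of axons (chr6:101361851-107837614, 457 probes), lay at 0.39 to 0.41 and 0.41 to 0.48. Brightness matching narrowed such gaps. From the chromosome median, the kappa stretch departed by -0.18, -0.13 and -0.16 in vehicle against 0.0020, -0.099 and -0.077 in resistant tumours. After matching it departed by -0.18, -0.16 and -0.18 against -0.041, -0.14 and -0.14. The matched departures of the contactin stretch were -0.090 to -0.10 against -0.048 to -0.087.

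In the high stretches 73.3% of probes were named for a gene or transcript, against 61.4% in the low ones. The one with Chd4, Gapdh, Ing4 and Cd4 (chr6:124614376-128554223, 502 probes), which also holds Ccnd2, lay at 0.56 to 0.59 in vehicle against 0.46 to 0.51 in resistant tumours. The one with Fancd2, Vhl and Ogg1 (chr6:111721323-121108887, 1117 probes) lay at 0.57 to 0.60 and 0.51 to 0.57. The one with Smo, Nrf1 and Irf5 (chr6:27980508-40615226, 1386 probes) lay at 0.53 to 0.56 and 0.54 to 0.59. After brightness matching, the stretch with Ccnd2 departed from the chromosome median by 0.084 to 0.10 in vehicle against -0.0039 to 0.060 in resistant tumours. The stretch with Fancd2 departed by 0.088 to 0.098 against 0.028 to 0.088, and that with Smo by 0.048 to 0.061 against 0.069 to 0.092. Read in the other tumours, 17 of the 19 low stretches lay below the chromosome median in vehicle tumours 2 and 3, but 10 at 40, 15 at 80 and 11 at 160 mg/kg/day. Of the 12 high stretches, 11 lay above it in vehicle tumours 2 and 3, 10 at 40, and 11 at both 80 and 160 mg/kg/day. After brightness matching the counts of low stretches were 19 and 19 in vehicle against 15, 17 and 15 in resistant tumours, and those of high stretches 11 and 11 against 9, 11 and 11. None of these stretches left the gain, and the lowest mean of any segment of at least 5 probes in any tumour was 0.31.

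Segmenting each tumour by itself (penalised least squares) found no local departure, meaning no segment of at least 5 probes whose mean lay 0.3 or more from the chromosome median. It gave 31, 15 and 26 segments of at least 5 probes in vehicle tumours against 2, 4 and 1 in resistant tumours at 40, 80 and 160 mg/kg/day. After brightness matching the counts were 28, 22 and 28 in vehicle tumours against 7, 16 and 11 in resistant tumours, again with no local departure. With normexp correction they were 19, 4 and 14 against 3, 3 and 1, with 1 local departure, in vehicle tumour 2. With the deposited signals, the segment farthest from the chromosome median lay 0.18, 0.12 and 0.17 from it in vehicle tumours against 0.048, 0.083 and 0.029 in resistant tumours. At 160 mg/kg/day the only segment was the whole chromosome. Its 0.029 is merely the mean of its probes (0.513) less their median (0.484), so no part of the chromosome departed there. The depth of these profiles sets what could have been found. At its noise, a departure of 0.3 needed about 19 neighbouring probes to be detected in vehicle tumour 1, 47 and 35 in vehicle tumours 2 and 3, and 122, 96 and 254 in the resistant tumours. At the median spacing of 7.85 kb that is about 149 kb in vehicle tumour 1 and 1994 kb at 160 mg/kg/day. A change of 0.3 over a shorter stretch was thus not detectable in those tumours, whereas a larger change needs fewer probes.

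Smo was gained with the rest of the chromosome in all 6 tumours. Its 4 probes (chr6:29694945-29708926) had means of 0.58, 0.61 and 0.71 in vehicle tumours against 0.64, 0.54 and 0.64 in resistant tumours at 40, 80 and 160 mg/kg/day. The groups overlap, and the difference was -0.032 (two-sided exact permutation test, p = 0.6, adjusted 0.6). These means stood 0.084 to 0.22 above each tumour's chromosome 6 median, but 1 of the 4 probes, with 0.70 to 1.58, carried much of that. With the median over the 4 probes the excess ranged from -0.0098 to 0.17, and with normexp correction the mean excess over tumours turned from 0.14 to -0.041. The 152 probes within 0.5 Mb on each side of Smo had means of 0.56, 0.58 and 0.61 in vehicle against 0.58, 0.55 and 0.60 in resistant tumours, 0.073 to 0.11 above the chromosome median, in a stretch that was high in every tumour. No amplification limited to Smo was detected. Segmentation needed 19 to 254 neighbouring probes for a departure of 0.3, so one of that size limited to these 4 probes could not have been found.

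Ccnd2 was also above 0 in all 6 tumours, with lower values in the resistant ones. Its 4 probes (chr6:127094255-127113965) had means of 0.64, 0.70 and 0.70 in vehicle tumours against 0.47, 0.50 and 0.53 in resistant tumours. The groups do not overlap. The means were 0.68 ± 0.037 and 0.50 ± 0.029 (SD, n = 3 each), a difference of -0.18 (two-sided exact permutation test, p = 0.1, the smallest this design allows, adjusted 0.25), so it did not pass a threshold of 0.05. The vehicle tumours lay 0.15 to 0.21 above their chromosome 6 medians, and the resistant tumours between -0.018 and 0.050 of theirs. The drop was largest at 1 probe, with 0.52 to 0.71 in vehicle tumours against 0.12, 0.15 and -0.079 in resistant tumours. Another of the 4 probes was no lower, with 0.77 to 0.95 in vehicle against 0.84 to 1.14 in resistant tumours. The 111 probes within 0.5 Mb on each side went from 0.55 ± 0.015 to 0.44 ± 0.032 (SD, n = 3 each), a difference of -0.10 (exact permutation p = 0.1, adjusted 0.25). On the brightness-matched scale the Ccnd2 means were 0.67, 0.67 and 0.69 in vehicle against 0.40, 0.46 and 0.41 in resistant tumours. With normexp correction the groups overlapped, with Ccnd2 at 0.15, -0.097 and 0.21 from the chromosome median in vehicle tumours and at -0.11, -0.045 and 0.0012 in resistant tumours.

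**Figure D4:**
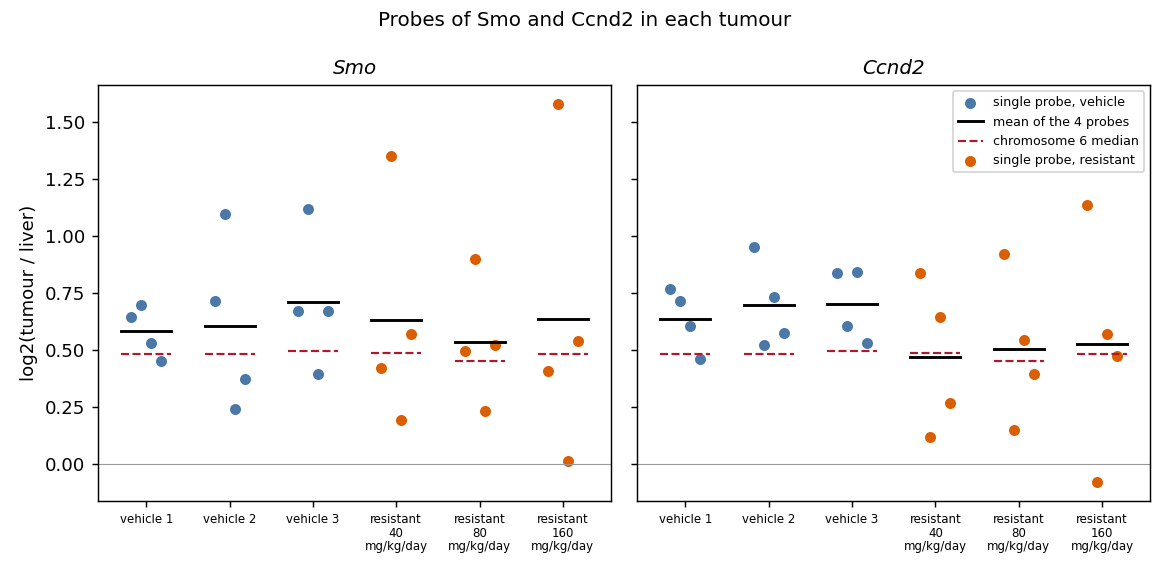
Log2 ratio (vertical axis) of the 4 probes of Smo (left) and the 4 probes of Ccnd2 (right) in each of the 6 tumours (horizontal axis), as points in positional order, with black bars for their mean and red dashed bars for the tumour's chromosome 6 median. The Smo means overlap between groups, and the Ccnd2 means lie at 0.64 to 0.70 in vehicle against 0.47 to 0.53 in resistant tumours.

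How unusual this is among genes can be read from all genes of chromosome 6. Of the 590 genes with at least 3 probes, 175 (29.7%) had every resistant tumour below every vehicle tumour, against 27.0% of the 10169 such autosomal genes. Another 108 (18.3%) had every resistant tumour above, against 19.0%. The shares on chromosome 6 were thus close to those of the autosomes as a whole. Ranked by the difference, Ccnd2 was number 58 of the 590 from the lowest. On the brightness-matched scale 130 genes (22.0%) lay lower and 74 (12.5%) higher, against 21.2% and 13.3%, and Ccnd2 was number 6.

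At the ends of that ranking stood genes with few probes. Vamp5, a membrane fusion gene, had means of 0.59, 0.35 and 0.41 in vehicle tumours against -0.091, 0.097 and -0.23 in resistant tumours. Cd69, a lymphocyte surface marker, lay at 0.69, 0.90 and 0.80 in vehicle tumours against 0.98, 1.03 and 2.29 in resistant tumours, the last in the noisiest array. Matched for brightness, Vamp5 became 0.58, 0.48 and 0.52 against 0.19, 0.33 and 0.18, and the groups of Cd69 overlapped. These genes were chosen after their values were seen, and they had 4 probes each.

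Across genes, the gain was general. Of the 590 genes, 501 (84.9%) had a mean of 0.3 or more in all 6 tumours, against 79 of 9579 genes on the other autosomes (5.70% of all autosomal genes, a share that includes chromosome 6), and 583 lay above 0 in all 6. The median over genes was 0.53, with a 5th percentile of 0.31 and a 95th of 0.72. The lowest was Plekhg6 at 0.17 and the highest Cd69 at 1.12 (means of 6 tumours).

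Among growth signalling genes all 9 with at least 3 probes, of 11 listed, were at 0.3 or more in all 6 tumours, with a median of 0.55. Met, the receptor of hepatocyte growth factor, had means of 0.48, 0.50 and 0.55 in vehicle against 0.63, 0.53 and 0.68 in resistant tumours. Braf, a kinase of the MAP kinase cascade, ranged from 0.49 to 0.63. Ret, a neurotrophic receptor, ranged from 0.49 to 0.62, and Tgfa, a ligand of the EGF receptor, from 0.58 to 0.80. Ptn, a heparin-binding growth factor, ranged from 0.40 to 0.54.

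Of the cell cycle, replication and repair genes, 4 of 7 had at least 3 probes, and 3 of the 4 were at 0.3 or more in all tumours. The exception was Mcm2, a subunit of the replicative helicase, with 0.60, 0.37 and 0.39 in vehicle tumours against 0.12, 0.24 and 0.019 in resistant tumours. Its 3 probes were bright (percentile 88.0 of the other autosomes), and on the brightness-matched scale its group means were 0.53 and 0.43. Rad52, which pairs strands in recombination, stood at the other end with 0.62, 0.94 and 0.82 in vehicle against 0.99, 0.93 and 1.31 in resistant tumours. Its 3 probes were dim (percentile 6.48), and matching brought its group means to 0.71 and 0.72. Fancd2 and Rad18, both of DNA damage tolerance and crosslink repair, lay at 0.50 to 0.63 and 0.46 to 0.54. Cdkn1b was listed but matched no probe by name.

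All 8 chromatin and transcription genes with at least 3 probes, of 12 listed, were at 0.3 or more in all 6 tumours, with a median of 0.56. Ezh2, the histone H3 lysine methyltransferase of the Polycomb complex, ranged from 0.46 to 0.83 and averaged 0.63, and 0.52 when matched for brightness. Chd4, a remodelling ATPase, ranged from 0.67 to 1.02 with dim probes (percentile 7.49), and its matched mean was 0.64. Genes with more probes had narrower ranges. Sox5, with 47 probes, ranged from 0.46 to 0.51 and Etv6, with 32, from 0.44 to 0.51. Of the 4 Wnt ligand genes, Wnt2, Wnt5b and Wnt7a averaged 0.54 to 0.64, and Wnt16 lay at 0.50, 0.37 and 0.32 in vehicle against 0.25, 0.23 and 0.17 in resistant tumours. In the HoxA cluster only Hoxa3 had at least 3 probes, with a range of 0.49 to 0.62.

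Neural genes formed the lowest of these lists, with a median of 0.43 over 14 of 17 genes, against 0.53 over all genes of the chromosome. Many are very long and lie in the low stretches. Cntnap2, a neuronal adhesion gene with 282 probes, had means of 0.35, 0.36 and 0.37 in vehicle against 0.45, 0.37 and 0.42 in resistant tumours. Grm8, a glutamate receptor with 111 probes, had 0.35 to 0.38 and 0.40 to 0.50. Cntn6, with 48 probes, ranged from 0.32 to 0.42. Grin2b, an NMDA receptor subunit with 52 probes, was lowest, at 0.42, 0.34 and 0.35 in vehicle against 0.30, 0.32 and 0.25 in resistant tumours. It averaged 0.33, and 0.40 when matched for brightness. Cacna1c, a calcium channel gene with 76 probes, ranged higher, from 0.46 to 0.56. All 14 lay above 0 in all 6 tumours.

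The windows were then tested for a difference between resistant and vehicle tumours, with limma across 2551 windows of 1 Mb over the genome. On chromosome 6, 2 of the 147 windows passed an adjusted p of 0.05, both lower in resistant tumours, and none passed as higher. That is a smaller share than the 3.96% of windows called genome-wide (3.68% lower and 0.274% higher). At an unadjusted p of 0.05, 45 windows of chromosome 6 passed, 25 of them lower, against 28.1% of windows genome-wide. The first called window, chr6:122000001-123000000, holds Apobec1 and the glucose transporter gene Slc2a3. It had means of 0.48, 0.47 and 0.49 in vehicle tumours against 0.41, 0.40 and 0.41 in resistant tumours, a difference of -0.075 (SE 0.012, limma adjusted p = 0.0446). The second, chr6:135000001-136000000, with part of Grin2b, Emp1 and Hebp1, had 0.54, 0.50 and 0.52 against 0.44, 0.43 and 0.43, a difference of -0.085 (SE 0.015, limma adjusted p = 0.0472).

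Both calls were small against the gain itself and did not hold widely. On the brightness-matched scale no window of chromosome 6 passed (28 at an unadjusted p, 43 windows or 1.69% called genome-wide), and the 2 windows differed by -0.051 and -0.047 (limma adjusted p = 0.125 and 0.148). The limma call was also lost, with 0 windows, when any 1 vehicle tumour was left out (32, 32 and 33 of 2551 windows called genome-wide). Leaving out a resistant tumour gave 4 windows without that at 40, 31 without that at 80 and 3 without that at 160 mg/kg/day. Calls rose genome-wide too in these settings, to 320, 474 and 210 of 2551 windows, so the 31 were not particular to chromosome 6. Of the 31 windows, 9 were lower and 22 higher in resistant tumours, whereas the 4 and the 3 were all lower. The window with Smo (chr6:29000001-30000000) went from 0.59 ± 0.026 to 0.59 ± 0.031 (SD, n = 3 each, limma adjusted p = 0.952). The window with Ccnd2 (chr6:127000001-128000000) went from 0.63 ± 0.011 to 0.55 ± 0.038 (SD, n = 3 each), a difference of -0.081 (SE 0.023, limma adjusted p = 0.113).

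**Figure D5:**
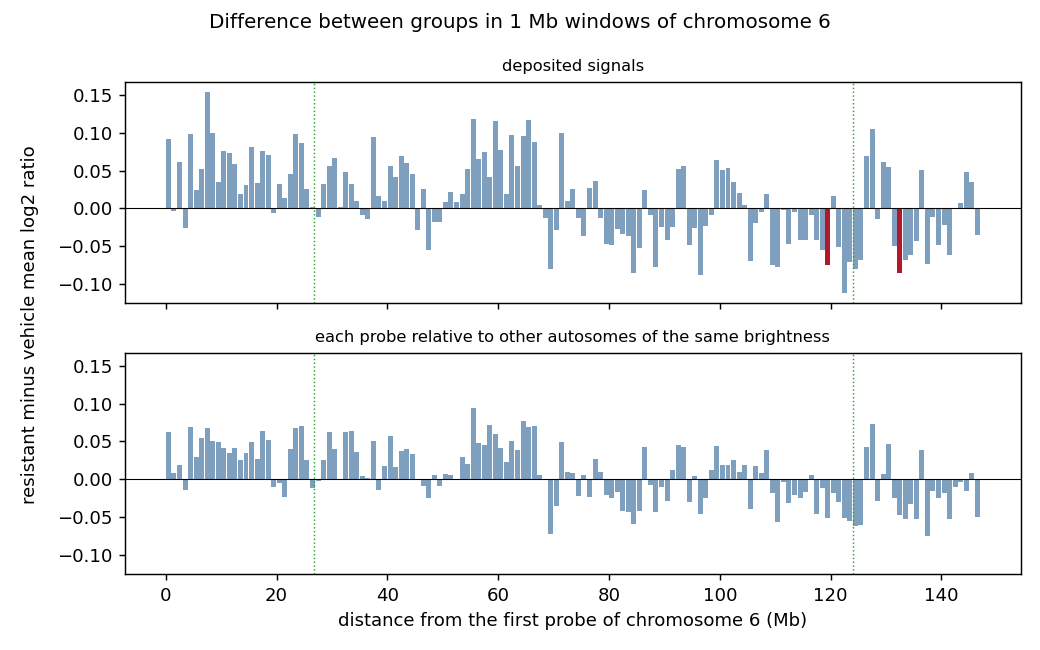
Difference in mean log2 ratio, resistant minus vehicle (vertical axis), of 1 Mb windows along chromosome 6, by distance from the first probe in Mb (horizontal axis), with deposited signals (top) and on the brightness-matched scale (bottom). The 2 red bars are the windows that passed limma's adjusted p of 0.05, at -0.075 and -0.085, and dotted lines mark Smo and Ccnd2.

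Levels were also compared between the ends of the chromosome. The distal stretch, the last of 3 equal lengths of the chromosome, exceeded the proximal one by 0.049, 0.032 and 0.038 in vehicle tumours. In resistant tumours the difference was -0.050 at 40, 0.0036 at 80 and -0.010 at 160 mg/kg/day. On the brightness-matched scale the values were 0.047, 0.039 and 0.044 against -0.034, 0.017 and 0.015. The groups do not overlap on either scale, and this was not tested, since evenness belonged to the rule. The same difference is not given for the other autosomes, so it cannot be called particular to chromosome 6.

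A few single probes departed from the gain in every tumour. Of the 13963 probes, 38 lay 0.4 or more below the chromosome median in all 6 tumours (0.272%, against 1.24% on the other autosomes, and 1.18% of all autosomal probes), and 18 lay as far above (0.129%, against 0.853%, and 0.807%). No such probe of chromosome 6 had a neighbour of the same kind. The shares on the other autosomes count every such probe, alone or in a run, so they are not shares of isolated probes. Low probes included 4 named by immunoglobulin light chain records, among them U55578 (-0.26 to -0.64) and M17485 (-0.18 to -0.68). They included V2r1b, a vomeronasal receptor (-0.33 to -0.93), Klra22, a natural killer cell receptor (-0.25 to -0.52), and 2 probes of the potassium channel gene Kcnd2. Of the 18 high probes, the one with the highest mean, named by the record BC029726, read 2.03 to 2.58, and 1 probe of Alms1, a centrosome gene, read 1.22 to 2.48. The gene Gxylt2 had 1 probe at -0.39 to -0.84 and another at 0.95 to 1.75. Only 21 probes lay at or below 0 in all 6 tumours, against 24.9% of the probes of the other autosomes.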

How the data were processed

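Tumour DNA (Cy5) and liver DNA (Cy3) were hybridised to Agilent whole-genome arrays, 1 tumour per array. The deposited scanner files hold intensities that, per the file headers, Agilent Feature Extraction 9.5.3.1 had background-subtracted, detrended and dye-normalised, with positions on mm8. The authors' deposited value table holds log10 ratios of the same arrays in the same direction and served as an alternative. From the deposited processed intensities, log2(tumour/liver) was computed. Outlier-flagged features were left out, probes of one name were averaged, and each array was centred on its autosomal median, without loess or quantile scaling. Probes were averaged in 1 Mb windows (at least 5 probes) and divided into segments by least squares, at a breakpoint penalty of 3 times the usual. Windows were tested with limma 3.58.1 (R 4.3.3) and Benjamini-Hochberg adjustment, and single values with exact permutation tests. Scripts ran in Python 3.11.15 and were tested on simulated data.

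Groups came from the labels. The members and gene lists were chosen with earlier results of these data known. Genes were named by a rule: Smo, Ccnd2, the members of the lists, and up to 6 genes in each local departure and in the 3 highest and 3 lowest windows. Some genes the rule names are not reported here. Other genes, named to place a stretch, a window or a probe, were picked after their values were seen. Alternatives were normexp background correction, other centrings, window sizes, penalties and left-out tumours; the brightness-matched scale was chosen after seeing the data. Brightness matching subtracts the median of the other autosomes in 50 brightness bins. The RNA arrays of the series were not used here, since no table used here pairs their probe sets with genes. The number of arrays, 3 per group, limits the precision.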

Additional observations from a re-analysis of the deposited data

How the results depend on the processing

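The group difference in the chromosome 6 median (-0.013) took the opposite sign with centring on the autosomal mode (0.026) and with means over probes (0.0040), and was -0.13 with normexp signals. Leaving out 1 tumour at a time gave -0.019 to -0.0027. The 2 windows called by limma on chromosome 6 became 5 of 293 with 0.5 Mb windows (194 of 5053 genome-wide). They became 1 (higher) with each array centred on its own chromosome 6 median (46 of 2551 genome-wide). With 2 Mb windows, normexp signals, centring without chromosome 6, array weights or brightness matching they became 0 (36 of 1298 genome-wide, then 0, 50, 46 and 43 of 2551). At an unadjusted limma p under 0.05 these settings gave 22, 0, 50, 14 and 28 windows on chromosome 6. Genome-wide they gave 358, 654, 750, 649 and 538. Leaving out 1 tumour at a time gave 0 to 31 windows (32 to 474 of 2551 genome-wide), and 22 of the 31 were higher in resistant tumours. The 79 segments became 112 with brightness matching, 114 and 54 with a penalty of 2 and 5 times the usual, and 44 with normexp signals, which gave 1 local departure in place of 0, in vehicle tumour 2 over natural killer cell receptor genes (-0.31 from the median over 406 probes). The SD of window means (0.077 over tumours) was 0.089 with 0.5 Mb and 0.068 with 2 Mb windows. The distal minus proximal difference in vehicle tumours (0.040) was 0.051 with normexp signals. The causes were not tested.

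The mean excess of Smo over the chromosome median (0.14) was -0.041 with normexp signals and 0.066 with the median over probes. Its resistant minus vehicle difference (-0.019) was 0.11, -0.096 and 0.0035 with normexp signals, the median over probes and probes within 0.5 Mb. The mean excess of Ccnd2 (0.11) was 0.017 with normexp signals, 0.045 with brightness matching and 0.013 with probes within 0.5 Mb. Its resistant minus vehicle difference (-0.17) was -0.25 with brightness matching and -0.092 within 0.5 Mb.

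No paired analysis was possible because the labels give the resistant DNA tumours no replicate numbers. A scan-date block was not run, since all arrays share 1 scan day, and other settings for the RNA arrays were not run.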
